A study of Mus musculus with 6 samples.

Results

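The regions described here are the acetylated regions of sorted fetal lung epithelium, the epithelial regions. They are the merged peaks of the 2 epithelium libraries that both libraries cover by at least 1 bp on chromosomes 1 to 19 and X, whatever the mesothelium shows there. The rule gave 11521 regions of 82251 merged epithelium peaks (14.0%), beside 132171 merged peaks of the 4 libraries analysed. The rule used where peaks lie in the epithelium, not how much of a region is covered, and it used no mesothelium value.

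Acetylation of histone H3 at lysine 27 (H3K27ac) was mapped by CUT&RUN, a method that brings a nuclease to a chromatin mark with an antibody and sequences the DNA cut free. The mouse embryos were at E16.5, an age in days after mating, from matings of Myrf Fl/Fl mice; the labels name no Cre and the series text calls the mesothelial cells wildtype. Lungs were pooled and sorted by flow cytometry, epithelium as PDPN+EPCAM+CD45-CD31-DAPI- and mesothelium as PDPN+EPCAM-CD45-CD31-DAPI-, so that podoplanin (PDPN) was present on both and EPCAM separated them. Each cell type had 2 H3K27ac libraries, from 100k and 200k cells (k as in the sample titles) for epithelium replicates 1 and 2 and from 25k and 100k for mesothelium replicates 1 and 2, and 2 IgG libraries of epithelium were not analysed here, so that no background of the assay is given. No label says that replicates came from separate litters, and the p-values then reflect the spread of these libraries alone, possibly technical. A gate on PDPN can leave out epithelial cells that lack it. In sorted bulk cells, a mark in fewer cells and less of the mark per cell cannot be told apart.

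H3K27ac is deposited at active promoters and enhancers, mainly by the acetyltransferases p300 and CBP, and long runs of it often lie around genes that define a cell type. Lung epithelium comes from foregut endoderm under the transcription factor NKX2-1 together with forkhead factors such as FOXA1 and FOXA2. In the late fetal lung the tips of its branching tubes respond to FGF signals and hold progenitors of the alveolar type 1 cells, which are flat and exchange gas, and the alveolar type 2 cells, which make surfactant.

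Agreement between libraries was low and bears on everything that follows. The 4 lists held 39002 to 47858 peaks over 35.7 to 44.4 Mb, with a median fold enrichment of the peak over the caller's background between 3.47 and 3.75. Any pair made of 1 epithelium and 1 mesothelium library shared 10.7% to 11.4% of its merged peaks, not far below the 14.0% shared by the 2 epithelium libraries and the 14.7% shared by the 2 mesothelium libraries. Of the peaks of epithelium replicate 1, 24.7% overlapped a peak of replicate 2, and 25.6% the other way round. The shared regions held more of the acetylated length than of the peaks, with 42.8% and 43.5% of the length covered in replicates 1 and 2. Few peaks were strong: 569 and 576 in the 2 epithelium lists had a deposited −log10 q of at least 4, against 623 and 2267 in the mesothelium lists. A list holds only intervals above the caller's minimum, its depth is unknown, and the lack of a peak is not the lack of acetylation.

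Peaks of both epithelium libraries covered the most upstream annotated start of 8 genes among the markers and the 25 longest domains. The 250 bases before each start, from RefSeq for GRCm38.p6 (the assembly that mm10 names), are shown 5′ to 3′ on the gene's strand. They are the promoter bases of loci described next. A start counted as covered where a peak met at least 1 bp of the window from 250 bases before to 50 bases after it. Peaks need not cover all of the printed bases. Capitals mark matches to 9 short motifs, searched on both strands: FOX (TGTTTNC), NKX (CAAGTG), ETS (CCGGAAG), GRHL (AACNNGTT), TEAD (GGAATG), AP-1 (TGANTCA), SP and KLF (GGGCGG), the CCAAT box and the TATA box (TATAAA). Matches that overlap or touch run together. They lie at chr12:56536909-56537158 (minus strand) for Nkx2-1, chr16:22439571-22439820 (minus) for Etv5, chr4:154636874-154637123 (minus) for Prdm16, chr11:35980528-35980777 (minus) for Wwc1, chr1:126830633-126830882 (minus) for Nckap5, chr11:11898145-11898394 (minus) for Ddc, chr4:150281666-150281915 (plus) for Rere and chr6:28480098-28480347 (plus) for Snd1.
Nkx2-1: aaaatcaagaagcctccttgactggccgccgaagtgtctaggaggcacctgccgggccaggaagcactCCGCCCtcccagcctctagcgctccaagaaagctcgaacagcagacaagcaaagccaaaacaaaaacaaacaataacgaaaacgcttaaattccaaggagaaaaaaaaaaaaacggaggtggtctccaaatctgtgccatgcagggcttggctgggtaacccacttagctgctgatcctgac
Etv5: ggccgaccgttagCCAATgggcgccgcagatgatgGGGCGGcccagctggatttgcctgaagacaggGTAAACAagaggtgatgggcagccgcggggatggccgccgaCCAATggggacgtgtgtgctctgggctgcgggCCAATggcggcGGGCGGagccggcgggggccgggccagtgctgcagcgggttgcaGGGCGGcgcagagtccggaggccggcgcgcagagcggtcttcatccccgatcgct
Prdm16: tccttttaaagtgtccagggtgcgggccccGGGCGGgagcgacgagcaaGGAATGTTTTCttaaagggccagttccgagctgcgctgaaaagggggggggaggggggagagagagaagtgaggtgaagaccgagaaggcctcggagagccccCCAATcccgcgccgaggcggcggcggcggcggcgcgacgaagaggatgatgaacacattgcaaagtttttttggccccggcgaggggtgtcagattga
Wwc1: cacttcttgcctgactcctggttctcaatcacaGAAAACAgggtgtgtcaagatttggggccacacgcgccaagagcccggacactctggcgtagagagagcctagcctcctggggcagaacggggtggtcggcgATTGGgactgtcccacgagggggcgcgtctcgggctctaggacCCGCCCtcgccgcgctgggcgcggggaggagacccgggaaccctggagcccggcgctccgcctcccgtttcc
Nckap5: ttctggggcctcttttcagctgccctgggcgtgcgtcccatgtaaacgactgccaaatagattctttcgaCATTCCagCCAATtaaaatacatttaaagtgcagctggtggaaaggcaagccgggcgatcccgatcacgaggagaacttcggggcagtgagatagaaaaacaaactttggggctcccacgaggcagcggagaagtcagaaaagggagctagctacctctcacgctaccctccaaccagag
Ddc: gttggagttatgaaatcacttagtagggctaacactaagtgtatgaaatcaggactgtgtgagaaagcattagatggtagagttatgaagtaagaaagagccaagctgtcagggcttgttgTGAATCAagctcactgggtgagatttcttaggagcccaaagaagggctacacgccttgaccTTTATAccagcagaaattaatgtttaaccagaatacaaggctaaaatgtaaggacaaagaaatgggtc
Rere: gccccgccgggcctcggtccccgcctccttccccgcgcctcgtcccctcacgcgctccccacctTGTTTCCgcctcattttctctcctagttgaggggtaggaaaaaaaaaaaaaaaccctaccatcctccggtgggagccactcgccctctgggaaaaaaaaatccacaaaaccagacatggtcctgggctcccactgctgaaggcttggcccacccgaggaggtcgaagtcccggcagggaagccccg
Snd1: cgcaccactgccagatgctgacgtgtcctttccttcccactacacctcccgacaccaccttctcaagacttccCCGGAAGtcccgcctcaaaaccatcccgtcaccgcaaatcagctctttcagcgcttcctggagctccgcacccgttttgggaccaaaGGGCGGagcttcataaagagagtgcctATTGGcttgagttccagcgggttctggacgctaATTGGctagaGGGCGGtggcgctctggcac
The first 6 starts had no mesothelium peak, and the last 2 had a peak in both mesothelium libraries. The Etv5 stretch is rich in G and C (71.2%) with 27 CpG dinucleotides, and the Ddc stretch is poor in both (40.8% and 1 CpG) and holds a TATA match. A match describes the letters only.

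The epithelial label was set beside 6 marker genes that were chosen with earlier results of these data known. Their values are thus a description and not an independent check of the label. All 6 had epithelial regions in their domains, as had 5902 of 21627 coding genes. A gene domain is the gene itself with the flanking bases that lie closer to it than to other coding genes, at most 50 kb away, and its value is the length covered by peaks. Nkx2-1, the master factor of lung endoderm, held 28.1 and 33.7 kb in epithelium replicates 1 and 2 and 2.95 and 0 kb in mesothelium replicates 1 and 2. Foxa2, a pioneer factor of endoderm, held 36.3 and 45.5 kb in epithelium against 5.85 and 0.417 kb in mesothelium. In both domains every epithelium value was several times the higher mesothelium value, and mesothelium replicate 1 lay above replicate 2. Etv5, an ETS factor induced by FGF signals, held 15.4 and 14.9 kb in epithelium against 0.885 and 0 kb in mesothelium. Cldn18, a tight junction claudin of alveolar epithelium, held 22.5 and 14.0 kb in epithelium against 0.378 and 0.531 kb in mesothelium. Cdh1, which encodes E-cadherin, held 19.3 and 28.2 kb in epithelium against 8.05 and 1.03 kb in mesothelium. Epcam, the adhesion molecule used in the sort, had the shortest cover of the 6, with 5.35 and 4.48 kb in epithelium against 0.685 and 1.02 kb in mesothelium. The epithelium and mesothelium values did not overlap for any of the 6 genes. The share of all domains with such a separation is not given here, so nothing is read from that count.

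Covered lengths were compared between cell types with limma over 10484 domains, on log2(kb + 0.5) with each library centred on its median, a scale that understates the change of short domains. In this fit 264 domains (2.52% of those tested) were longer in epithelium and 146 (1.39%) were longer in mesothelium at a limma adjusted p under 0.05, with a median difference of -0.03. Of the 6 markers 5 were longer in epithelium, with log2 differences of 4.51 ± 0.67 (SE) for Nkx2-1, 4.03 ± 0.62 for Foxa2, 4.18 ± 0.64 for Etv5, 4.20 ± 0.58 for Cldn18 and 2.66 ± 0.60 for Cdh1. Their limma adjusted p-values were 0.000584, 0.00075, 0.000811, 0.000333 and 0.0124. Epcam differed by 1.95 ± 0.65 and did not pass (limma adjusted p = 0.103). The calls rest on how short lengths are treated: with 0.1 kb added in place of 0.5 kb, 0 domains were called longer in epithelium and 1 in mesothelium (1656 had an unadjusted p under 0.05), and with peaks of −log10 q of at least 2 alone, 0 were called in either direction (963 unadjusted). Of the 67 named genes called, 1 thus kept its call in the first of these fits and 0 in the second. A fit without 1 library leaves a lone library in a cell type, whose spread is then taken from the other pair. A call that held in such fits, here and below, is therefore not an independent check. Domains longer in epithelium numbered 119 without epithelium replicate 1, 80 without epithelium replicate 2 and 470 without mesothelium replicate 1. Without epithelium replicate 2 the Cdh1 call was lost (limma adjusted p = 0.0746), while the other 4 marker calls held without each library in turn.

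**Figure D1:**
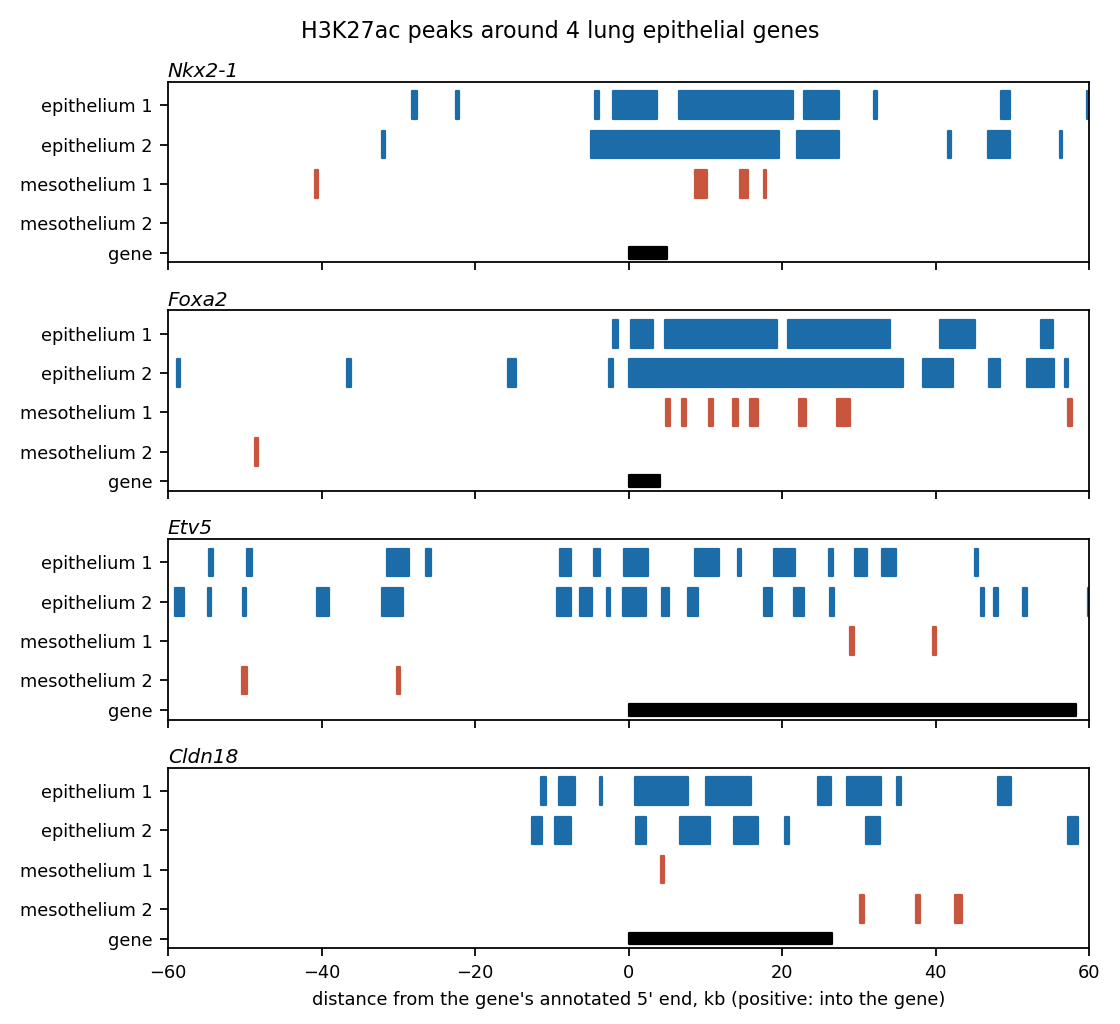
Peaks of each library (blue, epithelium replicates 1 and 2; red, mesothelium replicates 1 and 2) within 60 kb of the annotated 5′ end of Nkx2-1, Foxa2, Etv5 and Cldn18, with the gene body in black; the x axis is distance in kb, positive into the gene. Nkx2-1 and Foxa2 sit in near-continuous blocks of epithelium peaks, with mesothelium peaks of 2.95 and 5.85 kb in replicate 1 inside them, and Etv5 and Cldn18 carry separate shorter peaks.

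The marker loci differed in build as well as in length, as the map of peaks around 4 of them shows. A single region of 35.7 kb (chr2:148011272-148046936) reached from just inside the annotated start of Foxa2 through the gene and beyond its other end. At Nkx2-1 a region of 26.4 kb (chr12:56515466-56541877) held the whole gene. Etv5 had 5 separate regions, of which 3 lay inside the gene and 1 spanned its start (chr16:22437113-22440313, 3.20 kb). None of the 5 Etv5 regions had a mesothelium peak. Cdh1 had 9 regions, 7 of them inside the gene, and the widest (chr8:106613236-106620253) measured 7.02 kb. At Cldn18 the annotated 5′-most start window had no peak in either epithelium library, while an internal start at chr9:99710014-99710313 was covered in both. The internal start lay in a region of 16.1 kb (chr9:99700378-99716455). Epcam had 3 regions, and 1 of them spanned its start (chr17:87635563-87639621). The highest fold anywhere in that region was 4.84 and 4.39 in replicates 1 and 2. Its start window was covered in epithelium replicate 2 alone, and the replicate 1 peak lay further inside the gene.

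Genes of the sort behaved as follows. Pdpn, whose product marked both sorted populations, held 10.4 and 8.97 kb in epithelium against 0.364 and 0 kb in mesothelium, and was longer in epithelium by 3.89 ± 0.67 (limma adjusted p = 0.00163). Its widest region (chr4:143294299-143299803) lay at the gene end with the start and measured 5.51 kb. Ptprc, which encodes CD45, had no peak except 0.979 kb in epithelium replicate 2. Pecam1, which encodes CD31, had peaks in all 4 libraries, at 2.31 and 1.92 kb in epithelium against 5.43 and 1.53 kb in mesothelium, although cells with CD31 were sorted out of both.

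Marker lists of other cell types were set beside all coding genes, of which 7100 (32.8%) lacked an epithelium peak and whose medians were 0.388 and 0.376 kb in epithelium. Of 10 mesothelial markers 5 had no peak in either epithelium library (Upk3b, Lrrn4, Gpm6a, Bnc1 and Rspo1), and the list summed to 3.17 and 6.84 kb in epithelium against 30.3 and 70.3 kb in mesothelium. Msln, which encodes mesothelin, ran the other way, with 1.19 and 4.29 kb in epithelium against 0.544 and 0.893 kb in mesothelium. The 24 mesenchymal markers summed to 12.7 and 20.4 kb in epithelium against 92.4 and 118.8 kb in mesothelium, and 5 (20.8%) lacked an epithelium peak (Col3a1, Meis2, Tcf21, Twist1 and Tagln). Their medians in epithelium, 0.363 and 0.379 kb, were near those of all coding genes. Endothelial markers (16 genes) summed to 9.29 and 10.4 kb in epithelium against 19.5 and 12.4 kb in mesothelium, and 6 (37.5%) had no epithelium peak (Kdr, Tek, Tie1, Sox17, Sox18 and Esam). Immune markers (12 genes) summed to 0.530 and 1.74 kb in epithelium, and 9 of them had no peak there, Cd68, Csf1r and Cd3e included. Among 10 markers of other endoderm, 4 (40%) had no epithelium peak (Cdx1, Cdx2, Barx1 and Pax9, of gut and pharynx). Peaks of both epithelium libraries were present at 3 of the 10, and Hnf4a had 0.379 kb in replicate 1 alone. The list summed to 4.51 and 3.00 kb in epithelium against 1.67 and 2.45 kb in mesothelium. Erythroid markers (6 genes) summed to 1.58 and 0.792 kb in epithelium and neuronal markers (9 genes) to 13.0 and 11.2 kb, beside 5.84 and 9.62 kb in mesothelium. In the fit above, 6 mesothelial, 5 mesenchymal and 2 endothelial markers were longer in mesothelium and 0 of these 3 lists in epithelium. Wt1, Gpm6a, Meis1, Tbx5 and Col3a1 kept the call without each library in turn, and the other 8 did not. The part of these cells in any epithelial length was not tested.

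Epithelial regions were wider and had a higher top fold than peaks seen in 1 epithelium library, in part through the rule. Their median width was 1.89 kb against 0.521 kb for regions of a single library, and the median of the highest fold was 3.67 and 3.70 in replicates 1 and 2 against 3.41. A region merged from 2 peaks is wider than either, so the width is partly set by the rule. The fold was the highest among all peaks of a library in the region. A wider region can hold more peaks, so the rule bears on the fold too. The 90th percentile of width was 4.12 kb, 636 regions reached 5 kb and 60 reached 10 kb. The 2 libraries shared a median of 621 bp in a region, and in 528 regions (4.58%) they shared under 100 bp. Across regions the covered length of the 2 libraries correlated at a Spearman rho of 0.335 and the fold at 0.161; regions are not independent replicates, and both values depend on library depth.

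By place, 3224 epithelial regions (28.0%) lay within 2 kb of an end of a coding gene, 6011 (52.2%) inside a gene away from its ends and 2286 (19.8%) between genes. Distal regions, the last 2 classes together, made up 72.0% (95% exact interval 71.2% to 72.8%, which covers counting error only). Of the regions of a single epithelium library, 10.6% lay at gene ends, 54.1% inside genes and 35.3% between genes. Start sites inside genes count as distal here, since start sites were annotated for 17273 of 21627 coding genes (79.9%).

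The mesothelium covered part of these regions, in shares that differed by place. Of the epithelial regions, 4379 (38.0%) had no mesothelium peak, 3268 (28.4%) had a peak of 1 mesothelium library and 3874 (33.6%) had peaks of both. At gene ends 16.1% had no mesothelium peak, inside genes 42.1% and between genes 58.0%. The share with both mesothelium libraries ran the other way, at 58.4%, 26.8% and 16.6%. Regions with both mesothelium libraries were also wider, with a median of 2.27 kb against 1.59 kb for regions without mesothelium peaks, and a wider region has more room to meet a peak of another library.

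**Figure D2:**
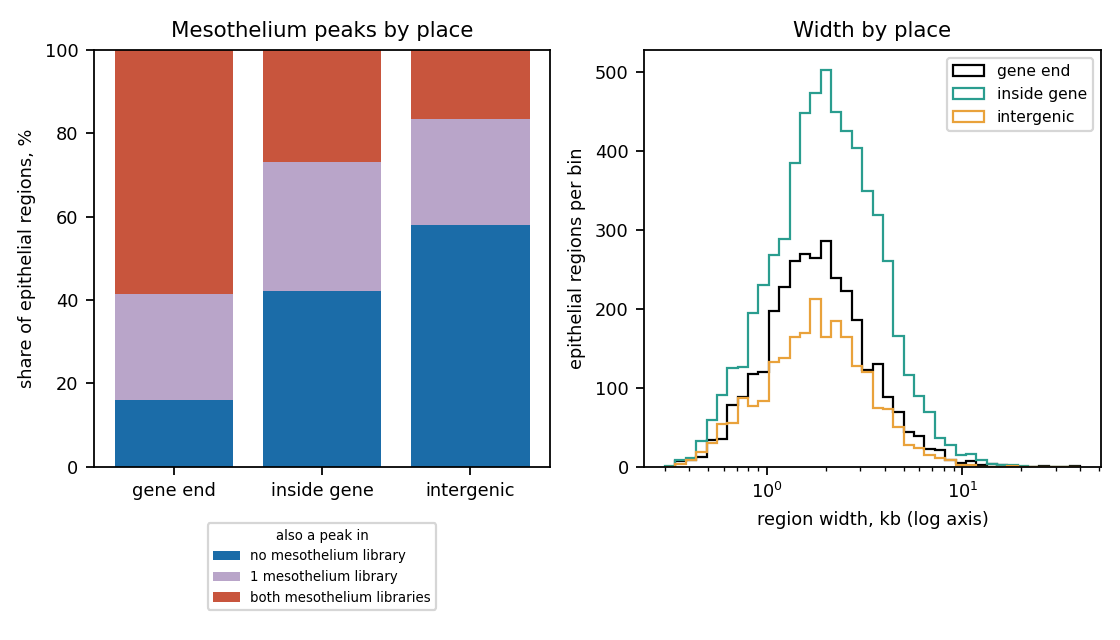
Left, share of epithelial regions (%) at gene ends, inside genes and between genes that had a peak in no, 1 or both mesothelium libraries; right, number of epithelial regions per bin of width (kb, log axis) for the same 3 places. Regions without a mesothelium peak make up 16.1% at gene ends and 58.0% between genes, while the 3 width distributions overlap, with medians of 1.79, 1.99 and 1.78 kb.

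Regions were spread over all autosomes and thin on the X chromosome. There were 36.2 regions per 100 coding genes on chromosome 7, the lowest autosome, and 83.1 on chromosome 18, the highest. The X chromosome had 112 regions, or 11.6 per 100 coding genes. The sex of the pooled embryos is not in the labels, and the part of gene families and of sex in this value was not tested.

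Ranked by the smaller of the 2 covered lengths, the widest epithelial regions were those at Foxa2 (30.7 and 35.7 kb in replicates 1 and 2) and Nkx2-1 (21.0 and 24.6 kb). The next 2 lay inside Ddc, which encodes aromatic L-amino acid decarboxylase, at chr11:11821843-11840510 (14.99 and 16.19 kb) and chr11:11876459-11895510 (12.9 and 17.9 kb). Unlike the first 2, the Ddc regions were also covered in both mesothelium libraries, by 13.5 and 5.92 kb and by 6.64 and 3.85 kb. The fifth was intergenic, at chr12:56284925-56303182, 25.1 kb from Mbip, and was covered for 12.5 and 18.3 kb in epithelium against 5.97 and 0.317 kb in mesothelium. It lay on the chromosome of Nkx2-1, and a second block between Mbip and Nkx2-1 (chr12:56399885-56441425) held 4 regions with 19.50 and 18.03 kb in epithelium against 6.49 and 0 kb in mesothelium. Irx5, a homeobox factor of the Iroquois family, had a region of 18.7 kb (chr8:92347580-92366286) with 0.802 kb in mesothelium replicate 1 and none in replicate 2. The remaining 9 of the first 15 lay at Zmynd8, Bcl2l1, Serpinb6b, Sdc1, Foxp2, Irf2, Efnb2, Lamc1 and Zfp608, each with peaks of both mesothelium libraries. Among them Sdc1 encodes the cell surface proteoglycan syndecan-1, Efnb2 the ligand ephrin-B2, Lamc1 a laminin chain and Bcl2l1 an inhibitor of cell death.

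Height picked out other places than width. Across regions the width and the smaller fold correlated at a Spearman rho of 0.259. The 10 regions with the highest smaller fold were 0.883 to 3.67 kb wide and lay at Denn2b (6.85 and 6.38), Dis3l (6.52 and 6.33), Mthfd2l (5.87 and 6.25), Flcn (5.64 and 7.01), Lamb3 (5.74 and 5.47), Anxa1 (5.44 and 5.41), Slc15a2 (5.94 and 5.32) and in 3 intergenic places. The intergenic ones were nearest to Cxxc4, 2010109A12Rik and Usp25. All 10 but the Lamb3 region had a peak in at least 1 mesothelium library. The Lamb3 region (chr1:193300572-193302742, inside the gene) had none; LAMB3 is a chain of laminin-332, a basement membrane protein of epithelia. The highest folds at gene ends, read within 1 kb of an end, were at Dis3l, Mthfd2l, Pan2, Flcn, Cdca3, Usp5, Anxa1, Slc15a2, Ugp2 and Traf3ip2. Of these, Dis3l and Pan2 act in RNA decay and Usp5 removes ubiquitin, and Cdca3 and Usp5 are neighbours that share a peak.

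Epithelial regions also fell into runs. Joining regions at most 12.5 kb apart gave 8446 groups, of which 6587 held a single region, 145 held at least 5 and the largest held 13. By the smaller covered length the longest run was at Ddc (7 regions over 78.1 kb, with 43.9 and 47.9 kb in epithelium against 32.6 and 22.1 kb in mesothelium), followed by Wwc1 (10 regions over 66.4 kb, with 39.4 and 42.0 kb in epithelium against 10.3 and 6.10 kb in mesothelium), which encodes the Hippo pathway scaffold KIBRA. The run at Foxa2 was next (5 regions, 38.7 and 44.6 kb) and had 6.37 and 0 kb in mesothelium. Ranks 4 to 8 held 28.7 to 47.0 kb in epithelium. In mesothelium they held 25.6 and 14.0 kb at Lamc1, 18.4 and 23.8 kb at Rai1 and 29.1 and 19.5 kb at Rere. The run at Zfp608 held 11.2 and 4.70 kb there, and a run between genes on chromosome 12 held 8.45 and 1.69 kb. Rank 9 was at Fgfr2 (12 regions, 32.3 and 27.7 kb in epithelium against 3.53 and 1.99 kb in mesothelium), the receptor through which FGF10 drives branching. Rank 10 was at Rnf43 (10 regions, 31.7 and 27.4 kb in epithelium against 13.8 and 7.56 kb in mesothelium), a WNT receptor antagonist. The run over Cdh1 held 8 regions with 18.1 and 23.3 kb in epithelium against 6.52 and 0 kb in mesothelium.

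Gene domains gather the peaks around a gene and were used to rank loci. Of 21627 coding genes 9329 (43.1%) had peaks of both epithelium libraries in the domain, 5902 had at least 1 epithelial region, and the Spearman rho of the 2 lengths over all domains was 0.722. Large domains hold more peaks: the smaller length correlated with the size of the domain at a rho of 0.472, and the 25 longest had a median domain of 370.2 kb against 45.0 kb over all genes. Of the 100 longest domains of each library 74 were the same genes. The smaller length had a 95th percentile of 6.51 kb, 573 domains reached 10 kb and 160 reached 20 kb in both libraries.

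Mecom ranked first in both epithelium libraries, with 103.1 and 95.1 kb in 25 epithelial regions. It encodes a zinc finger transcription factor with a PR domain, also known as EVI1. Its mesothelium lengths were 12.5 and 7.11 kb, and the domain was longer in epithelium by 3.26 ± 0.29 (limma adjusted p = 2.92e-06). Prdm16, its closest relative, ranked 21st with 39.5 and 41.9 kb in epithelium against 3.74 and 0.349 kb in mesothelium, a difference of 4.38 ± 0.58 (limma adjusted p = 0.000218). Both calls held without each library in turn. Ctnnd2, a delta catenin of cell junctions, held 78.6 and 71.0 kb in epithelium against 11.9 and 10.1 kb in mesothelium (2.65 ± 0.27, limma adjusted p = 1.05e-05). Nckap5 held 68.6 and 77.9 kb in epithelium against 11.9 and 2.72 kb in mesothelium (3.48 ± 0.44, limma adjusted p = 0.000201). These first 3 domains span 652.1 to 967.4 kb, so that peaks cover 7.09% to 14.6% of them.

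The rest of the 25 longest domains were split between loci that were longer in epithelium and loci that were not called. Wwc1 held 43.6 and 48.1 kb in epithelium against 11.7 and 8.02 kb in mesothelium (2.12 ± 0.32, limma adjusted p = 0.00075). Hipk2, a nuclear kinase, held 55.7 and 46.0 kb in epithelium against 18.7 and 3.95 kb in mesothelium (2.41 ± 0.46, limma adjusted p = 0.00429), and its domain overlaps Tbxas1. Sox6 held 40.1 and 38.6 kb in epithelium against 10.6 and 14.2 kb in mesothelium (1.58 ± 0.30, limma adjusted p = 0.00459). Also longer in epithelium were Ptprm, App, Foxp2, Etl4 and Fras1, which makes 12 of the 25 in all and 0 longer in mesothelium; since the 25 were ranked on the same epithelium lengths, nothing is read from that count. Rad51b, by contrast, held 66.1 and 49.8 kb in epithelium against 69.5 and 74.5 kb in mesothelium and was not called (limma adjusted p = 0.308). Rere, a corepressor gene, held 59.8 and 69.1 kb in epithelium against 64.9 and 59.2 kb in mesothelium (limma adjusted p = 0.991). Cux1, Fndc3b, Tcf12, Arid1b, Snd1, Rbpms, Mbnl1, Foxp1, Nfib, Lamc1 and Ddc were not called either. The App call was lost without epithelium replicate 2 (limma adjusted p = 0.0987), and those of Foxp2, Etl4 and Fras1 without either epithelium replicate (0.0548 to 0.254).

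Dividing the covered length by the size of the domain put compact loci first. Among domains of at least 10 kb, Vasn led with a smaller share of 64.0%, ahead of Ddc (44.9%), Rnf43 (40.7%), Acsl5 (37.0%) and Foxa2 (34.9%). Spint2, an inhibitor of epithelial serine proteases, reached 31.9% and Nkx2-1 30.5%. Vasn encodes vasorin, a membrane protein that binds TGF-beta, and held 7.18 and 7.79 kb of its 11.2 kb in epithelium against 2.00 and 0.880 kb in mesothelium. Its domain is the gene alone, without flanks, and overlaps Coro7, so this cover cannot be assigned to either gene. This ranking was less stable than that by length, with 44 genes common to the first 100 of both libraries.

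**Figure D3:**
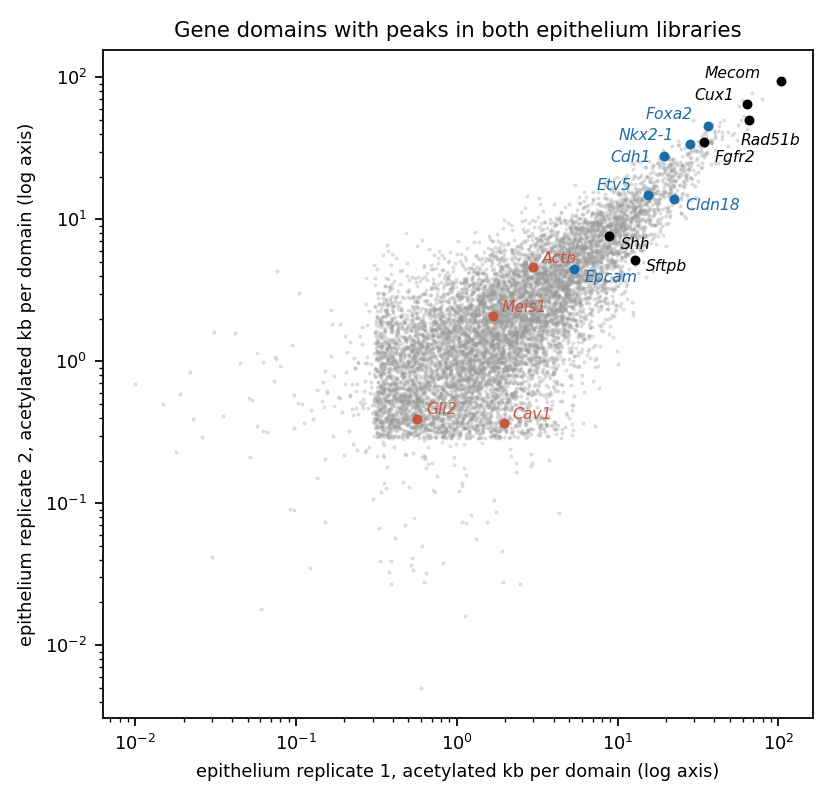
Acetylated kb per gene domain in epithelium replicate 1 (x, log axis) and replicate 2 (y, log axis), each grey point 1 of the 9329 domains with peaks in both; the 6 markers are blue, other genes named in the text black, and 4 genes of the lists that were not called longer in epithelium red. Long domains such as Mecom (103.1 and 95.1 kb) lie near the diagonal and short ones scatter widely, in step with the rho of 0.722.

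Transcription factors of lung endoderm were covered throughout in the epithelium. All 14 members had peaks of both epithelium libraries, with medians of 22.5 and 21.5 kb in epithelium against 3.35 and 0.457 kb in mesothelium, beside medians of 0.388 and 0.376 kb over all coding genes in epithelium. Their median domain was 108.4 kb, against 45.0 kb over all genes. Of the 14, 12 were longer in epithelium and 0 in mesothelium, beside 2.52% and 1.39% of all tested domains. The median log2 difference was 3.37. The list was drawn up with earlier results known and includes Mecom and Prdm16. Irx5 held 12.5 and 22.6 kb in epithelium against 0.802 and 0 kb in mesothelium (4.37 ± 0.65, limma adjusted p = 0.000584). Its Iroquois relatives Irx1, Irx2 and Irx3 held 7.02 to 14.9 kb in epithelium and at most 1.23 kb in mesothelium, and all 3 were longer in epithelium (limma adjusted p from 0.00133 to 0.0108). Foxa1 held 13.6 and 13.7 kb in epithelium against 4.796 and 0.432 kb in mesothelium (2.61 ± 0.66, limma adjusted p = 0.0262), in a domain that overlaps Ttc6.

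The forkhead genes of the P class differed among themselves. Foxp4 held 8.57 and 14.0 kb in epithelium against 1.70 and 0.720 kb in mesothelium (2.75 ± 0.60, limma adjusted p = 0.0103). Foxp2 held 58.6 and 50.2 kb in epithelium against 27.1 and 22.1 kb in mesothelium (1.07 ± 0.25, limma adjusted p = 0.0164). Foxp1 held 63.1 and 48.3 kb in epithelium against 53.7 and 59.3 kb in mesothelium, with a difference of -0.09 ± 0.21 (limma adjusted p = 0.874). The mesothelium values thus lay under those of the epithelium at Foxp4 and Foxp2 and overlapped them at Foxp1. Gata6, a zinc finger factor used by endoderm and mesoderm, held 26.6 and 20.5 kb in epithelium against 13.0 and 15.6 kb in mesothelium and was not called (limma adjusted p = 0.326). Of the 12 calls, 7 held without each library in turn. Without epithelium replicate 2 the calls of Foxp2, Foxa1, Foxp4, Irx1 and Irx3 were lost (limma adjusted p from 0.0715 to 0.139), without epithelium replicate 1 those of Foxp2 (0.129) and Foxa1 (0.0516), and without mesothelium replicate 2 that of Foxa1 (0.125).

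General epithelial factors were less covered. Among 12 such genes 9 (75%) had peaks of both epithelium libraries, beside 43.1% of all coding genes. Their median domain was 85.2 kb, against 45.0 kb over all genes. By limma 3 of 11 tested were longer in epithelium and 0 in mesothelium, beside 2.52% and 1.39% of all tested domains. The median log2 difference was 1.89. Grhl2, a grainyhead factor that controls junction genes, held 16.2 and 19.5 kb in epithelium against 6.48 and 0.683 kb in mesothelium (2.61 ± 0.63, limma adjusted p = 0.0199). Ehf, an ETS factor of epithelia, held 12.8 and 13.8 kb in epithelium against 2.43 and 1.93 kb in mesothelium (2.31 ± 0.51, limma adjusted p = 0.0113). Klf5 held 7.42 and 6.64 kb in epithelium against 1.03 and 0 kb in mesothelium (3.04 ± 0.71, limma adjusted p = 0.0157). All 3 calls were lost without epithelium replicate 2 (limma adjusted p from 0.0802 to 0.103), those of Ehf and Klf5 also without epithelium replicate 1 (0.0516 and 0.0806) and that of Grhl2 without mesothelium replicate 2 (0.0688). Elf3 and Elf5 held 3.87 to 4.76 kb in epithelium and were not called. The splicing regulators Esrp1 (4.02 and 0.906 kb) and Esrp2 (2.02 and 4.10 kb) were not called, and Ovol1 had no peak in the 4 libraries.

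Junction, keratin and protease genes reached 22 of 26 members (84.6%) with peaks of both epithelium libraries, beside 43.1% of all coding genes. Their median domain was 41.5 kb, against 45.0 kb over all genes. Of 23 tested, 6 were longer in epithelium and 0 in mesothelium, beside 2.52% and 1.39% of all tested domains. The median log2 difference was 1.57. Ocln, which encodes occludin, held 11.5 and 7.64 kb in epithelium against 0 and 0.389 kb in mesothelium (3.83 ± 0.67, limma adjusted p = 0.00181). Spint2 held 12.2 and 10.6 kb in epithelium against 0.567 and 2.17 kb in mesothelium (2.75 ± 0.59, limma adjusted p = 0.00905). Cldn3 held 6.28 and 6.33 kb in epithelium against 1.12 and 0 kb in mesothelium, and Jup, which encodes plakoglobin, 7.40 and 3.29 kb in epithelium against 0.450 and 0 kb in mesothelium (limma adjusted p = 0.0257 and 0.0259). Cldn18 and Cdh1 complete the 6. Simple keratins had modest lengths: Krt7, Krt8, Krt18 and Krt19 held 2.89 to 5.91 kb in epithelium, and Krt18 and Krt19 also 3.15 and 3.12 kb in mesothelium replicate 1. Tjp1, whose product ZO-1 links junctions to actin in many cells, held 26.6 and 19.6 kb in epithelium against 16.51 and 11.65 kb in mesothelium and was not called (limma adjusted p = 0.345). The calls of Spint2, Cldn3 and Jup were lost without either epithelium replicate (limma adjusted p from 0.053 to 0.29), and those of Cldn3 and Jup also without mesothelium replicate 2 (0.11 and 0.0606).

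Of 12 genes of the distal tip 11 (91.7%) had peaks of both epithelium libraries, beside 43.1% of all coding genes. Their median domain was 105.6 kb, against 45.0 kb over all genes. Of 11 tested, 7 were longer in epithelium and 0 in mesothelium, beside 2.52% and 1.39% of all tested domains. The median log2 difference was 2.41. Shh, the hedgehog ligand that the epithelium sends to the mesenchyme, held 8.90 and 7.63 kb in epithelium and had no mesothelium peak (4.07 ± 0.69, limma adjusted p = 0.00155). Fgfr2 held 34.3 and 35.3 kb in epithelium against 5.76 and 7.75 kb in mesothelium (2.24 ± 0.35, limma adjusted p = 0.00093). Hmga2, a chromatin protein of fetal progenitors, held 17.5 and 11.9 kb in epithelium against 0.815 and 1.05 kb in mesothelium (3.33 ± 0.56, limma adjusted p = 0.00136). Wnt7b, a WNT ligand of lung epithelium, held 15.4 and 13.5 kb in epithelium against 0.802 and 1.496 kb in mesothelium (3.15 ± 0.55, limma adjusted p = 0.00181). These 4 calls and that of Etv5 held without each library in turn. Mycn (6.13 and 10.9 kb in epithelium, 2.04 and 0.467 kb in mesothelium) and Spry1 (5.35 and 8.77 kb in epithelium, 0 and 0.590 kb in mesothelium) were called, with limma adjusted p-values of 0.0386 and 0.00919, but not without epithelium replicate 2 (limma adjusted p = 0.289 and 0.131), and Mycn not without mesothelium replicate 2 (0.135).

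Some well-known tip genes were little covered. Sox9, a tip factor, held 0.706 and 3.26 kb in epithelium against 0.502 and 0 kb in mesothelium and was not called (limma adjusted p = 0.365). Etv4, the relative of Etv5, had no peak in the 4 libraries. Id2 held 6.03 and 6.33 kb in epithelium against 5.42 and 4.46 kb in mesothelium, and Bmp4 7.32 and 1.06 kb in epithelium against 4.83 and 2.28 kb in mesothelium. Neither Id2 nor Bmp4 was called.

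Genes of the wider FGF pathway were called in both directions. Of 15 tested among 19 members, 5 were longer in epithelium and 2 in mesothelium, beside 2.52% and 1.39% of all tested domains. Besides Fgfr2, Etv5 and Spry1, an inhibitor of the pathway that it induces, the 5 held Spred1, another inhibitor of RAS signalling, with 16.9 and 18.3 kb in epithelium against 5.66 and 4.19 kb in mesothelium (1.69 ± 0.43, limma adjusted p = 0.0284). Fgf1 was the fifth, with 4.13 and 9.25 kb in epithelium against 0.324 and 0.471 kb in mesothelium, in a domain that overlaps Arhgap26 (limma adjusted p = 0.0195). Fgf9, a ligand made by mesothelium, held 0.369 and 0.302 kb in epithelium against 2.38 and 12.9 kb in mesothelium (-2.95 ± 0.75, limma adjusted p = 0.0268), and Frs2, an adaptor of FGF receptors, 3.00 and 4.48 kb in epithelium against 15.1 and 16.2 kb in mesothelium (-2.01 ± 0.46, limma adjusted p = 0.0145). Fgf10, the mesenchymal ligand of FGFR2, held 0.805 to 1.26 kb in the 4 libraries. The calls of Spred1, Fgf1, Fgf9 and Frs2 were each lost without 1 or more libraries: without epithelium replicate 1 for Spred1 (limma adjusted p = 0.0956) and Frs2 (0.0876), without epithelium replicate 2 for Spred1 (0.185), Fgf1 (0.272) and Fgf9 (0.0593), and without mesothelium replicate 2 for Fgf9 (0.411).

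In the hedgehog pathway Shh alone of 10 tested members was longer in epithelium, and 2 were longer in mesothelium. Over all tested domains the shares were 2.52% and 1.39%. Gli2, a transcription factor of cells that receive the signal, held 0.568 and 0.393 kb in epithelium against 9.89 and 16.8 kb in mesothelium (-3.84 ± 0.60, limma adjusted p = 0.00093). Boc, a coreceptor, held 1.47 and 1.14 kb in epithelium against 6.58 and 10.5 kb in mesothelium (-2.35 ± 0.59, limma adjusted p = 0.0244), a call lost without either epithelium replicate (0.0512 and 0.0872) or mesothelium replicate 2 (0.124). The receptor gene Ptch1 held 15.8 and 16.3 kb in epithelium against 6.88 and 9.85 kb in mesothelium, and Gli3 24.9 and 11.1 kb in epithelium against 22.6 and 24.1 kb in mesothelium; neither was called.

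The calls in the other pathways stand beside 2.52% of all tested domains longer in epithelium and 1.39% longer in mesothelium. Nothing is read from how few members were called. In the WNT list (20 members, 14 tested) Wnt7b was longer in epithelium and Tcf7l2, a nuclear effector, longer in mesothelium (0.337 and 1.11 kb in epithelium, 7.45 and 6.79 kb in mesothelium, limma adjusted p = 0.0167, lost without epithelium replicate 1 at 0.0933 or mesothelium replicate 1 at 0.0634). In the Notch list Notch1 alone of 10 tested was called, at 13.8 and 16.4 kb in epithelium against 4.64 and 3.66 kb in mesothelium (limma adjusted p = 0.0386). Among BMP and TGF-beta genes Tgfbr2, a TGF-beta receptor, alone of 19 tested was called, at 21.2 and 24.7 kb in epithelium against 8.97 and 5.99 kb in mesothelium (limma adjusted p = 0.0289). The Notch1 and Tgfbr2 calls were lost without either epithelium replicate (limma adjusted p from 0.0721 to 0.25). Tgfb2, a ligand, held 33.4 and 30.0 kb in epithelium against 11.8 and 17.5 kb in mesothelium and did not pass (limma adjusted p = 0.0612). By limma 0 of 11 tested YAP and TEAD genes were called (0 at an unadjusted p under 0.05), and Tead1, a DNA-binding partner of YAP, was long in the 4 libraries, at 35.3 and 38.6 kb in epithelium against 21.5 and 36.3 kb in mesothelium. Of the nuclear factor I genes, Nfib held 64.1 and 43.4 kb in epithelium against 88.1 and 71.5 kb in mesothelium and was not called (limma adjusted p = 0.0961). Nfia held 34.4 and 28.2 kb in epithelium against 72.8 and 45.7 kb in mesothelium and was longer in mesothelium (-0.94 ± 0.26, limma adjusted p = 0.0427), a call lost without mesothelium replicate 1 (0.183) or either epithelium replicate (0.0867 and 0.196).

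Of 20 basement membrane genes 19 (95%) had peaks of both epithelium libraries, beside 43.1% of all coding genes, and 18 had peaks of both mesothelium libraries. Their median domain was 143.2 kb, against 45.0 kb over all genes. By limma 2 of 19 tested were longer in epithelium and 0 in mesothelium, beside 2.52% and 1.39% of all tested domains. Lama3, a laminin chain of epithelia, held 27.2 and 28.4 kb in epithelium against 6.09 and 2.56 kb in mesothelium (2.59 ± 0.44, limma adjusted p = 0.00157), a call that held without each library in turn. Fras1, an extracellular matrix protein of epithelial basement membranes, held 38.9 and 47.1 kb in epithelium against 16.4 and 22.1 kb in mesothelium (1.09 ± 0.28, limma adjusted p = 0.0289). Lamb3, which joins Lama3 in laminin-332, held 8.59 and 2.63 kb in epithelium against 4.54 and 2.43 kb in mesothelium and was not called. Lamc1, a chain of most laminins, held 51.2 and 39.1 kb in epithelium against 27.6 and 17.5 kb in mesothelium and did not pass (limma adjusted p = 0.0675). Among ERBB, VEGF and PDGF genes 0 of 9 tested were longer in epithelium, and Kdr, a VEGF receptor, was longer in mesothelium (0 and 0 kb in epithelium, 2.80 and 2.81 kb in mesothelium, limma adjusted p = 0.0496), a call lost without any 1 of the 4 libraries (0.127 to 0.258).

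Alveolar type 1 genes were partly marked at this age. Of 18 members 14 (77.8%) had peaks of both epithelium libraries, beside 43.1% of all coding genes. Their median domain was 86.3 kb. Of 15 tested 4 were longer in epithelium and 1 in mesothelium, beside 2.52% and 1.39% of all tested domains. The median log2 difference was 1.498. Sema3e, a semaphorin, held 30.0 and 30.5 kb in epithelium against 6.92 and 4.84 kb in mesothelium (2.23 ± 0.38, limma adjusted p = 0.00157). Lmo7, an actin-associated protein, held 31.7 and 24.1 kb in epithelium against 8.85 and 2.40 kb in mesothelium (2.37 ± 0.48, limma adjusted p = 0.00687). Cldn18 and Pdpn were the other 2, and all 4 calls held without each library in turn. Hopx, a homeodomain protein used as a type 1 marker, held 12.1 and 13.0 kb in epithelium against 2.44 and 4.50 kb in mesothelium and did not pass (1.71 ± 0.49, limma adjusted p = 0.054). Some markers of mature type 1 cells had little covered length, in short and in long domains. Spock2, in a domain of 55.2 kb, held 0 and 0.556 kb in epithelium and none in mesothelium. Clic5 (209.9 kb domain) held 3.075 and 4.36 kb in epithelium against 0 and 4.015 kb in mesothelium. Rtkn2 (129.4 kb domain) held 3.50 and 4.215 kb in epithelium against 2.835 and 1.89 kb in mesothelium. Neither Clic5 nor Rtkn2 was called. The domains of Aqp5 and Ager were short beside the median of 45.0 kb over all genes. Aqp5, a water channel, had no peak in a domain of 8.86 kb. Ager, which encodes the receptor RAGE, had 1.48 kb of its 3.59 kb domain covered in epithelium replicate 2 alone. Cav1, the caveolin gene of type 1 and many other flat cells, was longer in mesothelium, at 1.96 and 0.367 kb in epithelium against 6.42 and 9.70 kb in mesothelium (-2.58 ± 0.64, limma adjusted p = 0.0244), and lost its call without epithelium replicate 2 (0.184) or mesothelium replicate 2 (0.0843).

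Alveolar type 2 genes were unevenly covered. Of 19 members 13 (68.4%) had peaks of both epithelium libraries, beside 43.1% of all coding genes. Their median domain was 56.9 kb, against 45.0 kb over all genes. By limma 3 of 14 tested were longer in epithelium and 0 in mesothelium, beside 2.52% and 1.39% of all tested domains. The median log2 difference was 2.22. Besides Etv5 the 3 were Sftpb, a surfactant protein, with 12.9 and 5.14 kb in epithelium against 1.13 and 0.683 kb in mesothelium (2.59 ± 0.64, limma adjusted p = 0.0222), and Sftpd, with 5.87 and 2.52 kb in epithelium and none in mesothelium (3.07 ± 0.77, limma adjusted p = 0.0254). Both were lost without epithelium replicate 1 (limma adjusted p = 0.286 and 0.337), and Sftpd also without epithelium replicate 2 (0.0746). Abca3, the lipid transporter of lamellar bodies, held 3.29 and 2.98 kb in epithelium against 0.337 and 0 kb in mesothelium and did not pass (limma adjusted p = 0.0776). Lamp3, Slc34a2, Muc1 and Ctsh had 2.01 to 7.20 kb in epithelium and at most 0.952 kb in mesothelium, and none passed. Sftpc, the surfactant protein of type 2 cells, had 0.299 kb in epithelium replicate 2 alone, in a domain of 5.485 kb. Lyz2, a lysozyme gene of mature type 2 cells, had no peak in a domain of 26.9 kb. Lpcat1, an enzyme of surfactant lipid synthesis, was the longest of the list at 23.1 and 24.7 kb in epithelium, with 13.2 and 6.79 kb in mesothelium (limma adjusted p = 0.0806).

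**Figure D4:**
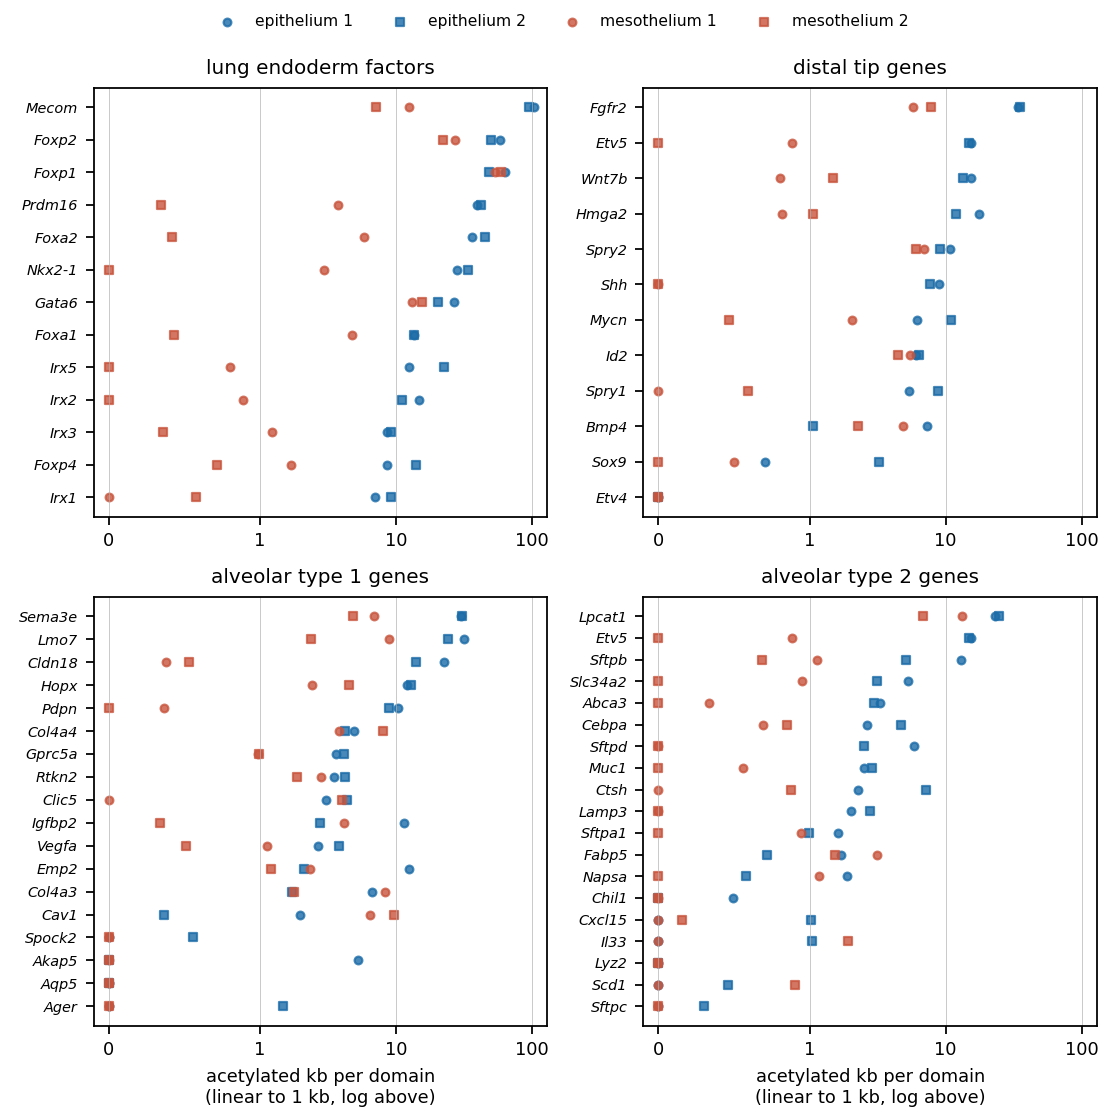
Acetylated kb per domain (x, linear to 1 kb and logarithmic above) of the members of 4 lists, less 1 lung endoderm factor not reported here, in epithelium replicates 1 and 2 (blue circle and square) and mesothelium replicates 1 and 2 (red circle and square). Blue symbols lie to the right of red for most lung endoderm factors, with Foxp1 (63.1 and 48.3 against 53.7 and 59.3 kb) as an exception, and several alveolar genes such as Aqp5 and Lyz2 sit at 0.

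Secretory and ciliated genes of the conducting airway were covered at a share near that of all coding genes. Of these 16 genes 7 had peaks of both epithelium libraries (43.8%, beside 43.1% of all coding genes) and 0 of 8 tested were called by limma (1 at an unadjusted p under 0.05). Foxj1, the master factor of ciliated cells, had 0.313 kb in epithelium replicate 1 alone, and Scgb1a1, the secretoglobin of club cells, 0.416 kb in epithelium replicate 2 and none in replicate 1. Rfx3, a ciliogenic factor also used elsewhere, was the longest at 21.4 and 14.5 kb in epithelium against 15.5 and 6.74 kb in mesothelium. Of 7 airway basal genes only Trp63 had peaks of both epithelium libraries (5.00 and 2.93 kb), and Krt5, Krt14 and Krt15 had none. Sox2, a factor of the proximal airway, had 0.526 kb in epithelium replicate 1 alone. Of 9 neuroendocrine genes only Uchl1 had peaks of both (1.07 and 1.28 kb), while Chga and Insm1 had none.

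Genes active in all cells set a scale for these lengths. Of 19 housekeeping genes 10 had peaks of both epithelium libraries, 0 of 13 tested were called by limma (0 at an unadjusted p under 0.05) and the median log2 difference was -0.84. Actb, the beta-actin gene, held 2.966 and 4.597 kb in epithelium against 4.84 and 1.56 kb in mesothelium, and Gapdh 0.343 and 0.381 kb in epithelium. Eef2, Tubb5 and Tuba1b, genes of translation and the cytoskeleton, had no peak in either epithelium library. A domain without epithelium peaks, such as that of Aqp5, was thus also seen at genes that nearly every cell uses. Immediate early genes, which cell dissociation can induce, were covered in both cell types: Jun held 8.69 and 9.07 kb in epithelium against 8.35 and 6.02 kb in mesothelium, Fos 5.24 and 4.04 kb in epithelium against 4.07 and 2.53 kb in mesothelium, and 0 of 7 tested were called by limma (0 at an unadjusted p under 0.05).

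**Figure D5:**
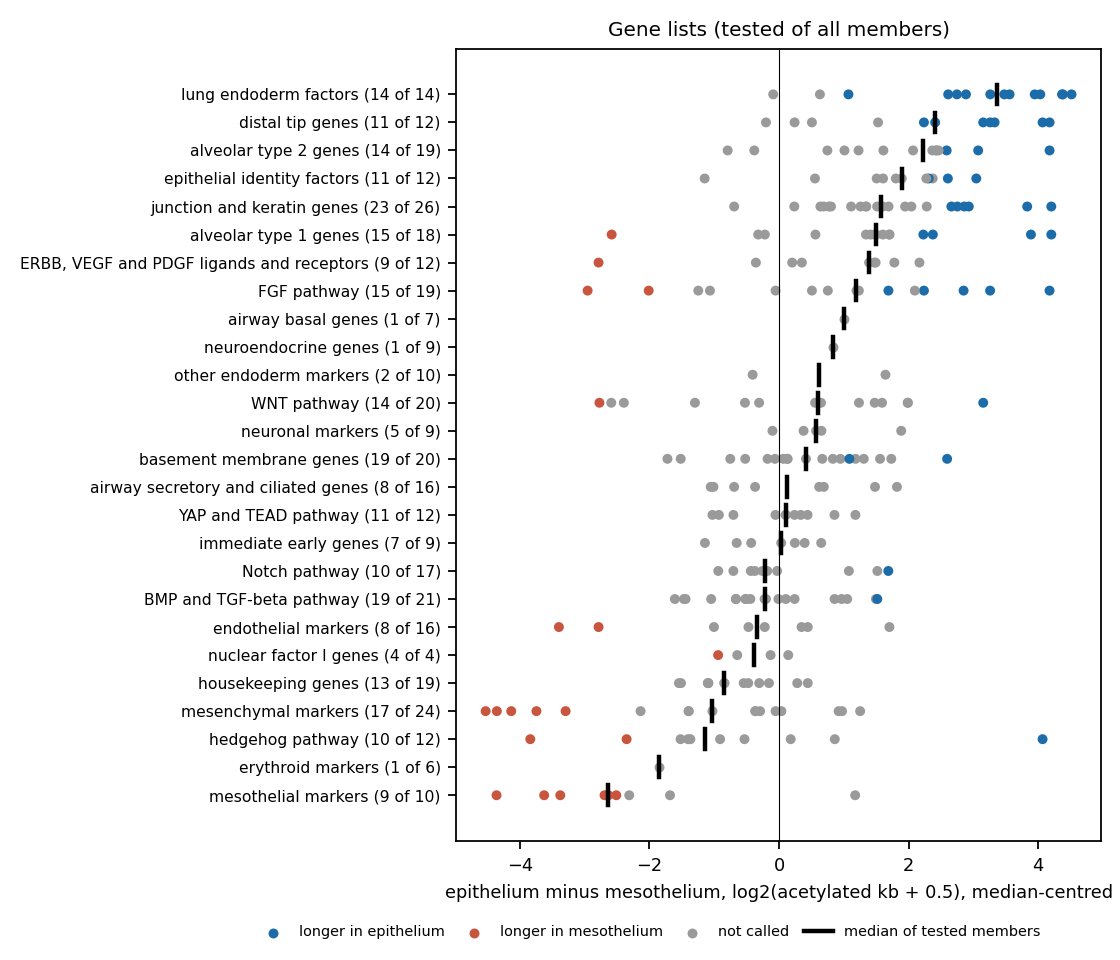
Difference in acetylated length between epithelium and mesothelium, on log2(kb + 0.5) after median centring (x), for every tested member of each list (rows, with the number tested of all members); blue points were longer in epithelium, red longer in mesothelium, grey not called, and black bars are medians of the tested members. Medians run from 3.37 for lung endoderm factors to -2.63 for mesothelial markers, beside -0.03 over all tested domains.

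Start sites with peaks of both epithelium libraries often had mesothelium peaks too. Windows from 250 bases before to 50 bases after a start were at hand for 17273 coding genes, and 1750 of them (10.1%) had a peak of both epithelium libraries at such a window. Single libraries covered more, with 19.2% and 19.3% of these genes in epithelium and 18.9% and 27.5% in mesothelium. Peaks in all 4 libraries were present at 1023 genes, and peaks in both epithelium and neither mesothelium library at 203. The latter number includes Nkx2-1, Etv5, Cldn18 and Prdm16. Foxa2 belongs to it through internal starts, since epithelium replicate 2 alone covered its 5′-most window.

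The sequence of start windows differed with where they were acetylated. The 2014 windows with a peak of both epithelium libraries had a median of 61.7% G and C and 22 CpG, beside 56.7% and 13 over all 21044 windows and 53.0% and 6 over the 12950 without a peak in any library. The ETS letters CCGGAAG were in 23.6% of them and in 11.7% of all windows, the SP and KLF letters GGGCGG in 65.3% and 46.7%, and the TATA letters in 6.06% and 12.7%. The 249 of these 2014 windows with no mesothelium peak had a median of 59.3% G and C and 17 CpG, with ETS letters in 10.8%, TATA letters in 9.64% and NKX letters in 15.7% (13.0% of all windows). FOX letters were in 18.9% of the 249 and 18.3% of all windows, and GRHL letters in 4.82% and 4.03%. For FOX and GRHL the shares thus lay close to those of all windows. Among the printed stretches, Prdm16 and Nckap5 hold TEAD letters and Snd1, which is shared with mesothelium, holds the ETS letters.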

How the data were processed

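H3K27ac CUT&RUN peak lists of 4 libraries, 2 of sorted epithelium and 2 of sorted mesothelium, were analysed. Per the submitters' processing notes, which give neither roles nor order, the tools included MACS2 2.2.9.1, Bowtie2 2.5.3, cutadapt 4.8 and bedtools 2.31.1, and the build was mm10. The deposited lists are broad peaks called per library; the ratio, or fold enrichment, and the −log10 q of each peak are the authors' own values as deposited. Read depth is not given in the sources used here. Peaks on chromosomes 1 to 19 and X were kept, and 8 to 22 per library were left out.

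Peaks of the 2 epithelium libraries were merged at 1 bp overlap, and regions with a peak of both were kept. Gene ends were used for place because start sites were annotated for 79.9% of coding genes; genes came from RefSeq GRCm38.p6, by symbol. Covered kb per domain, with a mean of at least 0.5 kb, was tested with limma 3.58.1 in R 4.3.3 on log2(kb + 0.5), median-centred, with a trend on mean length, and p-values were adjusted by Benjamini-Hochberg over all domains tested. The 2 libraries per cell type were the replicates. The fit was also run on simulated data with normally distributed noise, which lacked the zero lengths of the real domains. That run therefore cannot show how the fit treats short lengths, and nothing is read from it here. The remaining steps used Python 3.11.15 with numpy 2.4.6, pandas 2.3.3 and scipy 1.17.1, and figures were drawn with matplotlib 3.10.9.

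Genes named were the markers and sort genes, the 25 longest domains, the 10 highest gene-end folds, the 15 widest and 10 highest regions and, per list, up to 6 members with most kb, up to 6 without an epithelium peak and those called against their list. Other list members, the joined runs and the ranking by covered share were named after their values were seen. Regions, markers and the 27 lists (369 genes) were chosen with earlier results of these data known. Alternatives covered the added constant, the low-value filter, scaling, domain size, peak threshold and number, a replicate block and leaving out each library. Single values of 3 list members are not reported here; the counts and medians of their lists include them.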

Additional observations from a re-analysis of the deposited data

How the results depend on the processing

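The lists of called domains depended strongly on the processing. Against 264 domains longer in epithelium and 146 longer in mesothelium, adding 0.1 kb gave 0 and 1 (1656 at an unadjusted p under 0.05), peaks with −log10 q of at least 2 gave 0 and 0 (963 unadjusted), scaling to the total covered length gave 121 and 85, and gene bodies with 5 kb flanks gave 182 and 93. Adding 1 kb, dropping the filter and equal numbers of peaks gave 187 to 363 and 121 to 218. Leaving out 1 library in turn gave 80 to 470 longer in epithelium and 109 to 172 longer in mesothelium, with the lowest of both without epithelium replicate 2 and the highest of both without mesothelium replicate 1; the lone library left in a cell type is then assumed to vary like the other pair. The labels do not say whether same-numbered libraries form pairs. Their deviations correlated at 0.0289, which cannot settle it, and the replicate block gave 340 and 202. Of the 67 named genes called, all kept their direction in the fits run; 45 were called in at least 8 of the 12 alternatives, and 37 without epithelium replicate 2.

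The 11521 regions fell to 2142 and 19 with −log10 q of at least 2 and 4 and to 5737 where each library had to cover at least 50% of the region, and merging peaks up to 1 kb apart gave 14319. A single epithelium library gave 46611 to 47858. The distal share of 72.0% became 64.8% and 57.9% at these −log10 q limits, 69.4% with the stricter cover, 73.9% with the wider merging, 65.8% with 5 kb in place of 2 kb, and 85.1% to 85.7% in 1 library. Of the 100 longest domains 74 were shared between libraries, against 64 at −log10 q of at least 2 and 44 by covered share. The causes were not tested, and without depths the weak peaks cannot be graded further.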
